A study of Mus musculus with 6 samples.

Results

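Chemokines, interleukins and their receptors were examined in epididymal white adipose tissue of HuRAKO mice and their controls on an HFD. The members were the genes whose symbol starts with Ccl, Cxcl, Ccr, Cxcr or Il followed by a digit, together with Tnf, Ifng, Cx3cr1, Cx3cl1, Nos2, Ptgs2, Ackr1 and Ackr3. Of 13116 genes in the table of expression values, 93 entries under 89 different names were members. RNA-seq was carried out on tissue of 3 HuRAKO mice (HuRflox/flox:AdipoQ-Cre+) and 3 control mice (HuRflox/flox:AdipoQ-Cre-), C57BL/6 mice fed the HFD for 16 weeks from 8 weeks of age, and the values are FPKM, fragments scaled to transcript length and to all mapped fragments. Both groups carried the floxed HuR alleles and both ate the HFD, so that the Cre transgene is what sets them apart. The adiponectin promoter drives Cre in adipocytes, and macrophages, lymphocytes, endothelial and mesothelial cells of the same tissue keep HuR.

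Chemokines are small secreted proteins that draw leukocytes into tissue by way of G protein-coupled receptors, and atypical receptors such as Ackr1 and Ackr3 bind chemokines without that signal and set how much reaches other cells. Interleukins pass signals between immune cells and stroma through receptor chains that are often shared, such as Il6st (gp130) and Il2rg (the common gamma chain). In obese visceral fat, chemokines such as Ccl2 attract monocytes that become macrophages, whereas Il33 from stromal and mesothelial cells sustains regulatory T cells and group 2 innate lymphoid cells. HuR, encoded by Elavl1, binds AU-rich elements in the 3′-UTR of mRNAs, and many cytokine mRNAs hold such elements.

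Before the members are described, 3 facts of the libraries bear on each of them. The summed FPKM lay between 250270 and 264055 per mouse, and since FPKM keeps no read totals, the depth behind a value is unknown. Elavl1 was measured at 4.66, 5.24 and 5.63 FPKM in HuRAKO mice, against 3.93, 4.85 and 4.98 FPKM in control mice (log2 fold change 0.15, adjusted p = 0.807 from limma), so that Elavl1 in the tissue RNA was not lower in the mice labelled HuRAKO, and the groups are called below as the labels give them. By qPCR and western blot the paper reports less HuR mRNA and protein in fat of HuRAKO mice. It found the loss in mature adipocytes and not in the stromal vascular fraction. Whether the sequenced mice were among those is not stated. Which exons the floxed part spans is not given in the sources used here. Control replicate 3 stood apart from the other 5 mice on the first principal component, which held 41.1% of the variance (48.3 against -14.5 to -3.09). It was the highest mouse in the summed markers of monocytes, natural killer cells, macrophages, neutrophils and T cells and the lowest in those of eosinophils. Its sums of B cell, dendritic cell and mast cell markers lay within the range of the other mice. Of the 4 listed neutrophil markers 2 were highest in it, and Ear2 made up 15.1 of its eosinophil sum of 15.3 FPKM. The 4 monocyte markers summed to 17.1 to 25.0 FPKM in HuRAKO mice, against 27.0, 20.2 and 165 FPKM in control mice, and the 5 natural killer cell markers summed to 3.46 to 4.78 FPKM in HuRAKO mice, against 2.81, 2.41 and 56.9 FPKM in control mice. Each of 8 macrophage markers was highest in control replicate 3, with sums of 720.5 to 1072 FPKM in HuRAKO mice and 594 to 1597 FPKM in control mice. Whether control replicate 3 differed in health or in how its tissue was taken is not given in the sources used here. Results that rest on that mouse are also given without it.

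The AU-rich elements of the members are shown first, since HuR binds mRNAs at such sequences. Of 86 listed members with an annotated 3′-UTR in GENCODE M21, 62 held the motif ATTTA on the sense strand of their longest 3′-UTR (72.1%), against 8871 of 12706 tested genes (69.8%). The 86 members include Ccl17, Cxcl5 and Il27, which were not tested. The longer motif TATTTAT, which contains ATTTA, was found in 28 members (32.6%) and in 29.7% of all tested genes, and the median 3′-UTR was 955 bases long in members and 1161 bases in all tested genes. The share of members with either motif was thus close to that of all genes. Within the members the motif was uneven. Tnf had 8 copies and Ptgs2, which encodes cyclooxygenase-2, had 14, Cxcl1 had 7 and Cxcl2 had 11, whereas Il33 had 3, Il18 and Ccl2 had 1 each, and Ackr1, Ccl8 and Il22ra1 had 0. The stretches of 30 bases with the most copies are printed for members that the results turn on, from the transcript sequence in GRCm38, with ATTTA in capitals.
Il33, chr19:29959667-29959696, plus strand: ttttaacacATTTAacATTTAactttaagc
Il18, chr9:50581798-50581827, plus strand: ccgaggctgcatgATTTAtagagtaaacac
Ccl2, chr11:82037205-82037234, plus strand: taatattaaacttATTTAacttattgatgt
Ccl7, chr11:82047254-82047283, plus strand: tattaatatttttATTTAattagccatgta
Ccl12, chr11:82103325-82103354, plus strand: ATTTAaacaaacttgcttaaataatATTTA
Cxcl1, chr5:90892606-90892635, plus strand: gtcctATTTATTTAtgtATTTATTTAttcc
Cxcl2, chr5:90905327-90905356, plus strand: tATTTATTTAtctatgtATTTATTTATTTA
Tnf, chr17:35199678-35199707, minus strand: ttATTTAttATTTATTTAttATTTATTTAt
Ifng, chr10:118445332-118445361, plus strand: cctATTTAttaatATTTAaaactATTTAta
Ptgs2, chr1:150105796-150105825, plus strand: atATTTATTTATTTAtgtgaagaATTTAat
A motif match is a description of the sequence, and binding of HuR to these stretches was not measured in this tissue. Overlapping copies such as those of Cxcl2 and Tnf are of the kind known from unstable cytokine mRNAs. Il33 and Il18, the interleukins that were lower in HuRAKO mice, held ATTTA and no TATTTAT. Only 32.6% of members and 29.7% of all tested genes held TATTTAT, and whether either motif bears on the levels was not tested.

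Among the members, 3 genes were lower in HuRAKO mice at the study's thresholds of a fold over 1.5 with p under 0.05 before adjustment, and 0 were higher. These were Il33 and Il18, cytokines of the IL-1 family, and Il22ra1, the ligand-binding chain of the IL-22 receptor. The test was limma on log2(FPKM + 1) over all 12847 genes that averaged 0.5 FPKM or more. The 3 lower genes were 3.33% of the 90 members tested, against 1.35% of all genes tested, and the share of all genes called higher was 1.27%. After Benjamini-Hochberg adjustment over all genes 0 members passed an adjusted p of 0.05, where 0.00778% of all genes passed (4 members, or 4.44%, had an unadjusted p under 0.05, against 8.03% of all genes). The smallest adjusted p of a member was 0.379. Ccl17, Cxcl5 and Il27 lay under the filter and were not tested, and 8 tested members (Ccr3, Cxcl2, Ifng, Il10, Il12rb1, Il1b, Il6 and Tnf) averaged under 0.5 FPKM in the other 5 mice, so that they entered the test through control replicate 3.

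Control replicate 3 stood out among the members. It had the highest value of the 6 mice in 52 of the 90 tested members (57.8%), against 27.1% of all genes tested, and in 35 members it lay over 1 on the log2 scale above the mean of the other control mice (38.9%, against 4.86% of all genes). Both counts hold the 8 members that entered the test through control replicate 3, whose high value there follows from the filter. Those 8 members also stay in the counts without that mouse. With all 6 mice, 29 of 90 members had a log2 fold change above 0 (32.2%, against 46.8% of all genes), and without control replicate 3 the number was 59 (65.6%, against 50.3%). The median log2 fold change of the members was -0.21 with all mice and 0.08 without that mouse, and that of all genes tested was -0.01 and 0.00. The sign changed in 36 of the 90 members when this 1 mouse was left out. The share of all genes that changed sign was not counted, so this number has no baseline. Without control replicate 3, Ccl2 and Ackr1 were higher in HuRAKO mice at the study's thresholds (1.57% of all genes). Il33, Il22ra1 and Ccl28 were lower (1.66% of all genes). Ccl28 and Il22ra1 averaged under 0.5 FPKM in HuRAKO mice and passed the filter through the control mice. Again 0 members passed the adjusted p, where 0.0234% of all genes passed. An unadjusted p under 0.05 was found in 9 members, or 10%, against 9.95% of all genes.

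**Figure D1:**
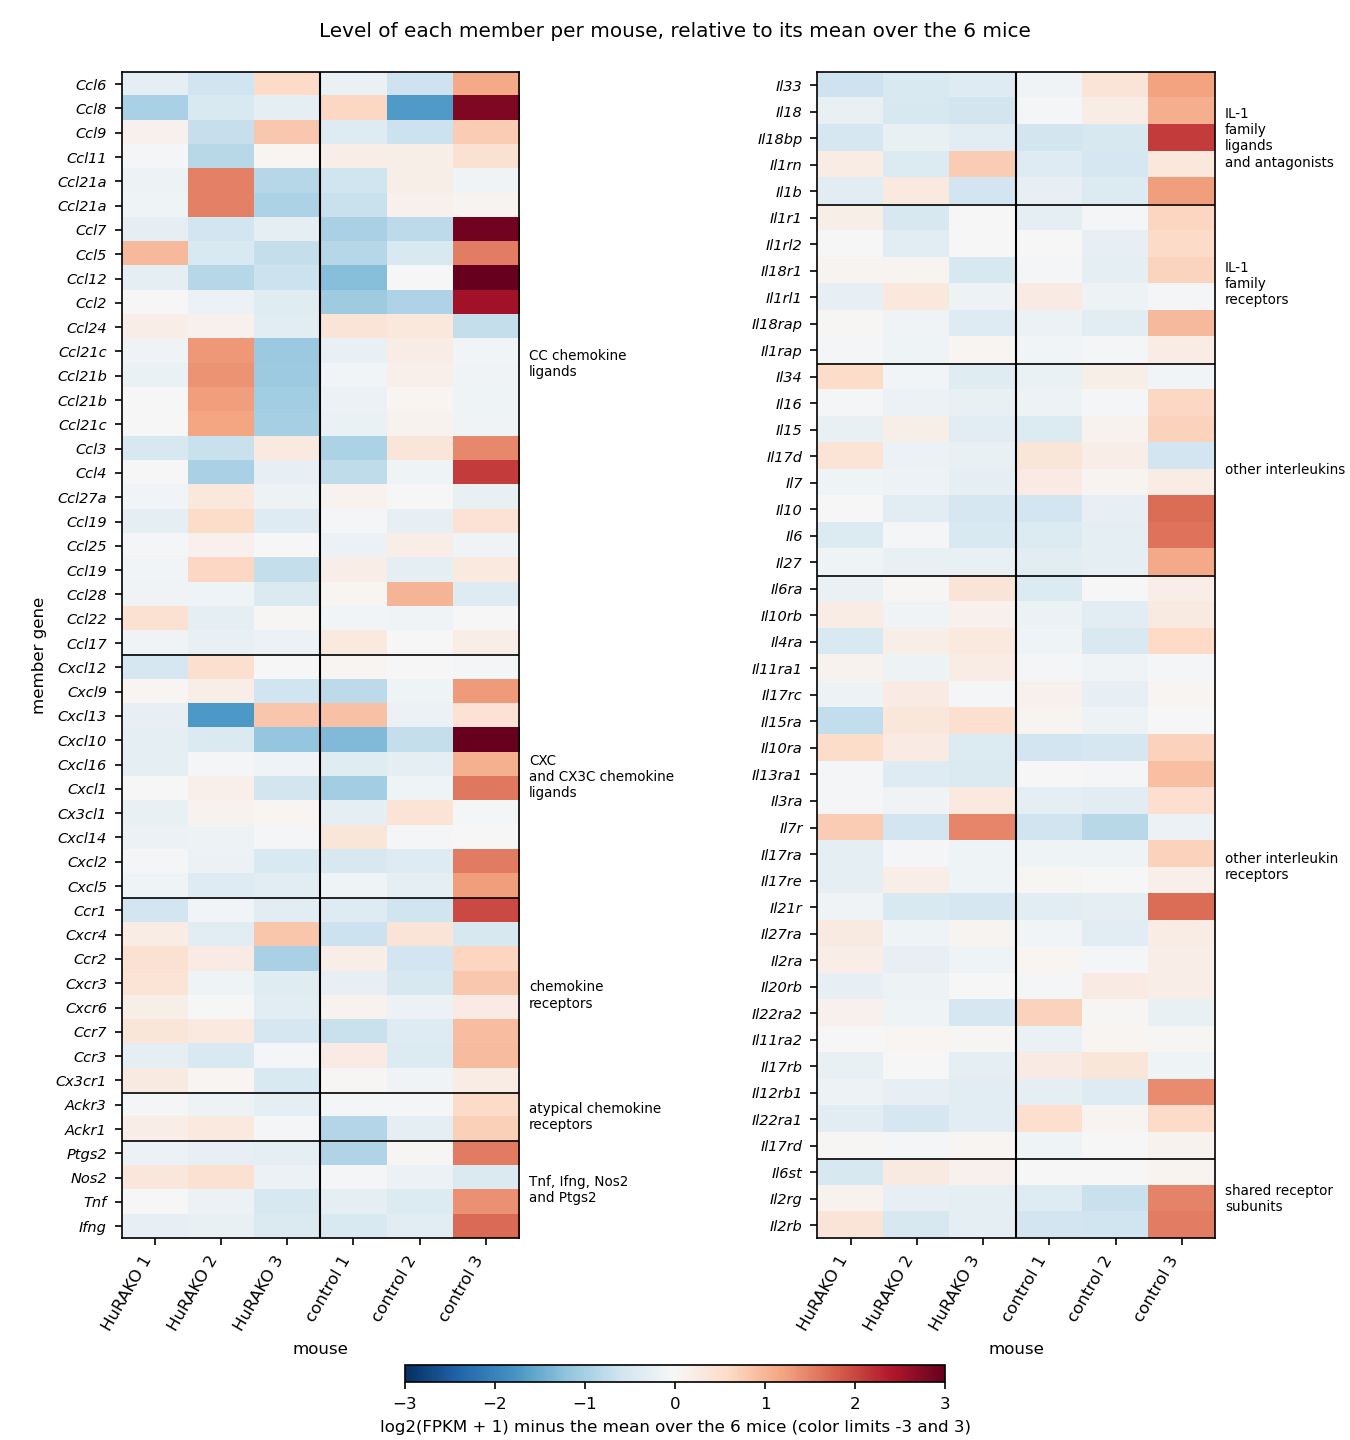
Each row is a member gene that is reported here and each column a mouse, and color gives log2(FPKM + 1) minus the gene's mean over the 6 mice, with red above and blue below the mean. The column of control replicate 3 is red for most chemokines, which is the mouse with the highest value in 52 of 90 tested members.

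Il33 is a nuclear alarmin that is released from damaged cells and acts on lymphocytes through its receptor Il1rl1 (ST2). It lies on chromosome 19, 29925114 to 29960718, plus strand (GRCm38), and was measured at 5.37, 6.13 and 6.55 FPKM in HuRAKO mice, against 8.14, 11.9 and 21.6 FPKM in control mice. Each HuRAKO mouse lay below each control mouse, and the control mice spanned a much wider range (log2 fold change -0.99 ± 0.32 (SE), adjusted p = 0.516, limma). Without control replicate 3 the log2 fold change was -0.63 ± 0.18 (SE). Il18, a cytokine that is cut from its precursor by caspase-1 and induces interferon-γ in lymphocytes, lies on chromosome 9, 50554827 to 50581840, plus strand. It was measured at 7.57, 6.18 and 5.89 FPKM in HuRAKO mice, against 8.70, 10.6 and 20.4 FPKM in control mice. The groups did not overlap here either (log2 fold change -0.84 ± 0.30 (SE), adjusted p = 0.563), and without control replicate 3 the log2 fold change was -0.50 ± 0.15 (SE), which is under the 1.5-fold threshold. Il22ra1, which makes epithelial cells responsive to IL-22, lies on chromosome 4, 135728172 to 135752140, plus strand and was a low gene, at 0.311, 0.150 and 0.300 FPKM in HuRAKO mice, against 1.32, 0.714 and 1.42 FPKM in control mice. Its HuRAKO values were all under 0.5 FPKM and its control values all above it (log2 fold change -0.77 ± 0.16 (SE), adjusted p = 0.379, and -0.67 ± 0.16 (SE) without control replicate 3). It averaged 0.253 FPKM in HuRAKO mice and 1.15 FPKM in control mice, so that it passed the filter of 0.5 FPKM through the control mice. Il22ra1 kept its call when any 1 mouse was left out, whereas Il33 lost its call without HuRAKO replicate 1 (log2 fold change -0.92). Il18 lost its call without HuRAKO replicate 2 (-0.80), HuRAKO replicate 3 (-0.77) or control replicate 3. In a fit without moderation of the variances only Il22ra1 passed.

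Il7, a survival factor of lymphocytes that stromal cells make, was measured at 0.857, 0.831 and 0.687 FPKM in HuRAKO mice, against 1.39, 1.14 and 1.34 FPKM in control mice (log2 fold change -0.35 ± 0.10 (SE), adjusted p = 0.475). Its fold was under 1.5 on the log2(FPKM + 1) scale and over 1.5 with a pseudocount of 0.1, where Il7 was lower at the study's thresholds (log2 fold change -0.64). Its log2 fold change without control replicate 3 was -0.34. HuRAKO mice lay below all control mice in 7 of the 90 tested members (7.78%), Ccl11, Il18, Il33, Ackr3, Il13ra1, Il22ra1 and Il7, against 7.68% of all genes tested. The untested Ccl17 had the same order. HuRAKO mice lay above all control mice in 0 members, against 7.04% of all genes. Ccl11 (eotaxin-1), the eosinophil chemoattractant that fibroblasts secrete, was the most abundant of these, at 53.9 ± 16.8 FPKM in HuRAKO mice and 76.7 ± 8.34 FPKM in control mice (mean ± SD, n = 3 each), and its log2 fold change was -0.55 (adjusted p = 0.650, limma). Il13ra1, a chain of the receptors of IL-4 and IL-13, was measured at 6.86, 5.21 and 4.95 FPKM in HuRAKO mice, against 7.14, 6.89 and 14.02 FPKM in control mice. HuRAKO replicate 1 and control replicates 1 and 2 lay next to each other in this gene, and its log2 fold change was -0.58 with all mice and -0.28 without control replicate 3. Ackr3, a scavenger of Cxcl12, was likewise close between the groups except in control replicate 3, at 28.4, 26.7 and 24.6 FPKM in HuRAKO mice, against 29.2, 28.95 and 45.1 FPKM in control mice.

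**Figure D2:**
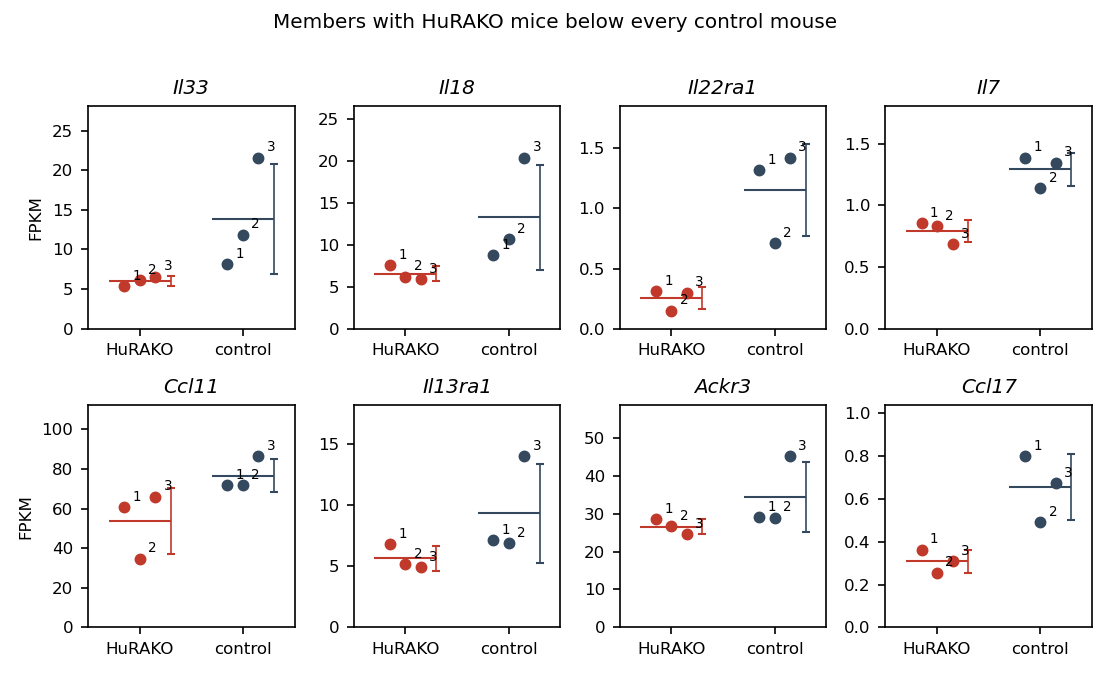
FPKM on a linear axis from 0 for the 8 listed members in which HuRAKO mice lay below every control mouse; points are mice with their replicate numbers, horizontal lines are group means and bars are the SD of 3 mice. The Il22ra1 values of HuRAKO mice are all under 0.5 FPKM and those of control mice all above it, and in Il33, Il18 and Il13ra1 control replicate 3 is well above the other control mice.

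Markers of mesothelial cells, which cover the visceral fat pads and make Il33 in mouse adipose tissue, were lower along with Il33, Il18 and Il22ra1. The 6 mesothelial markers summed to 91.5, 121 and 127 FPKM in HuRAKO mice, against 166, 199 and 263 FPKM in control mice. Upk3b, Krt19, Krt8, Lrrn4 and Wt1 were lower at the study's thresholds both with all mice and without control replicate 3, and Msln, the remaining marker, was not. The sums ranked the 6 mice in the same order as Il33, with HuRAKO replicate 1 lowest and control replicate 3 highest. Il18 and Il22ra1 did not share that order. Both were highest in control replicate 3, but Il18 was lowest in HuRAKO replicate 3 and Il22ra1 in HuRAKO replicate 2. No marker of the list was at 0 in any mouse. The part of the mesothelial cells in the lower values was not tested, and in bulk tissue fewer cells of a type and less RNA per cell cannot be told apart.

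At the level of transcripts, the 2 listed forms of Il33 differed in direction. Il33-202 (chr19:29925114-29960718) starts 20676 bases upstream of Il33-201 (chr19:29945790-29960704), and both end in the same region. Il33-201 was measured at 0, 4.65 and 0 FPKM in HuRAKO mice, against 7.88, 12.005 and 22.2 FPKM in control mice, and Il33-202 at 5.99, 2.31 and 7.44 FPKM in HuRAKO mice, against 1.33, 1.41 and 2.10 FPKM in control mice. Il33-201 was lower in HuRAKO mice (log2 fold change -2.96 ± 0.77 (SE), adjusted p = 0.573) and Il33-202 was higher (log2 fold change 1.16 ± 0.38 (SE), adjusted p = 0.699) in limma over 23233 transcripts, with no overlap between the groups in either. The upstream form made up 100%, 33.2% and 100% of Il33 in HuRAKO mice, against 14.4%, 10.5% and 8.66% in control mice. Both calls held without control replicate 3, without HuRAKO replicate 2 and with the replicate number as a block. That of Il33-202 was lost without HuRAKO replicate 1, HuRAKO replicate 3, control replicate 1 or control replicate 2 (log2 fold changes of 1.03, 0.89, 1.09 and 1.11), where that of Il33-201 held. An exact 0 in such a table can be a failed assignment of reads between forms that share most of their sequence, so the 0 in HuRAKO replicates 1 and 3 is given as listed. Of 129 member transcripts tested, 1 was higher (0.775%, against 2.31% of all transcripts) and 6 were lower (4.65%, against 2.28%), with 0 past an adjusted p of 0.05 (0.0603% of all transcripts, and 12 members, or 9.3%, with an unadjusted p under 0.05, against 6.52%). The other lower transcripts were Il22ra1-201, Il18-202, Il18-203, Il10ra-202 and Il16-201. Il18-203 averaged 0.469 FPKM in HuRAKO mice and 1.57 FPKM in control mice, so that it passed the filter of 0.5 FPKM through the control mice. The same holds for Il10ra-202, which was at 0 in HuRAKO replicates 1 and 2, and for Il22ra1 as a gene. The counts of lower transcripts hold such entries. Without control replicate 3 the balance turned, with 7 higher (5.43%, against 2.71% of all transcripts) and 3 lower (2.33%, against 2.69%). The higher ones were Ccl2-201, Cxcl1-201, Ackr1-201, Il10ra-201, Il16-203, Il17rc-203 and Il33-202, and the lower ones Il33-201, Il10ra-202 and Il22ra1-201. With the replicate block 3 were lower, Il33-201, Il10ra-202 and Il22ra1-201 (2.45% of all transcripts).

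**Figure D3:**
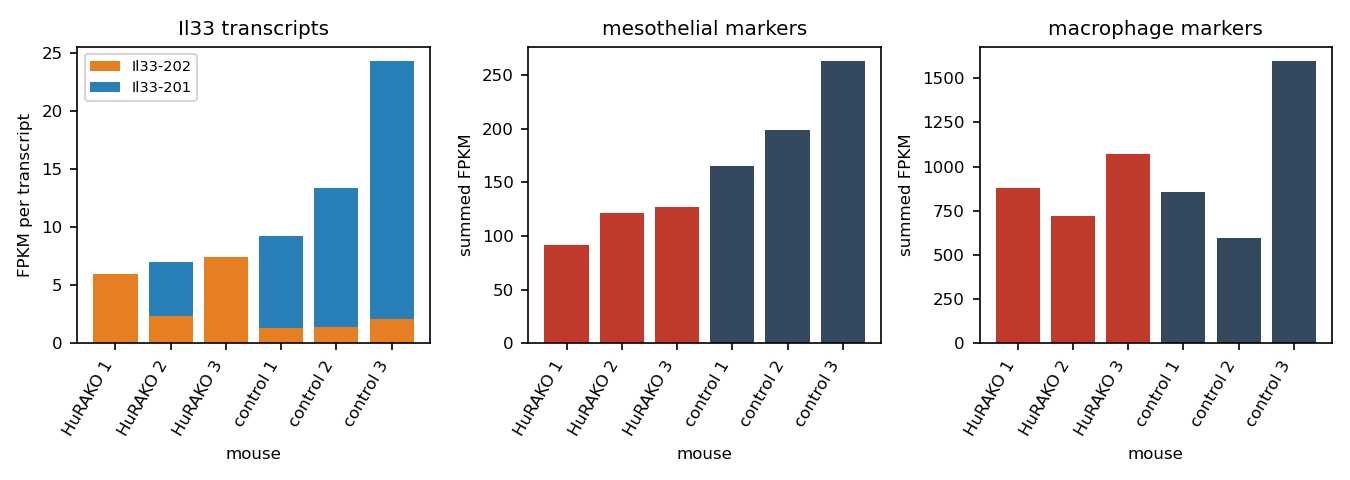
Stacked bars give the FPKM of the 2 listed Il33 transcripts per mouse, and the other panels give the summed FPKM of 6 mesothelial and 8 macrophage markers per mouse (HuRAKO red, control dark blue). Il33-201 is listed at 0 in HuRAKO replicates 1 and 3, and the mesothelial sum is at most 127 FPKM in HuRAKO mice and above 165 FPKM in control mice.

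Among other members with several forms, Il1rl1, the Il33 receptor, overlapped between the groups in its gene value (1.31, 2.41 and 1.46 FPKM in HuRAKO mice, against 2.22, 1.47 and 1.66 FPKM in control mice) but not in the makeup of its forms. Its form Il1rl1-205, which starts upstream of Il1rl1-201 and ends before it, held 18.9%, 27.9% and 24.4% of the listed Il1rl1 in HuRAKO mice, against 37.4%, 44.8% and 44.6% in control mice, and was measured at 0.388, 1.12 and 0.589 FPKM in HuRAKO mice, against 1.58, 1.31 and 1.48 FPKM in control mice. The fold of Il1rl1-205 was under 1.5 on the scale used (log2 fold change -0.55, adjusted p = 0.737, limma), and the shares were not tested. Il16, a ligand of CD4, had a long form, Il16-201, at 4.01, 3.62 and 2.61 FPKM in HuRAKO mice, against 4.88, 5.86 and 6.90 FPKM in control mice, and a short form, Il16-203, at 4.71, 3.92 and 4.91 FPKM in HuRAKO mice, against 1.92, 1.54 and 8.20 FPKM in control mice. The long form was lower in HuRAKO mice (log2 fold change -0.65, adjusted p = 0.672, limma), and the short form passed the thresholds as higher without control replicate 3 and not with all mice (log2 fold change 1.01). Il10ra, the signaling chain of the IL-10 receptor, had 2 listed forms whose split varied between mice of the same group, with Il10ra-202 at 0, 0 and 1.26 FPKM in HuRAKO mice, against 2.37, 1.86 and 2.25 FPKM in control mice.

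The rest of the IL-1 family moved with control replicate 3 or between mice. Il18bp, the soluble inhibitor of Il18, was measured at 1.41, 1.94 and 1.72 FPKM in HuRAKO mice, against 1.35, 1.46 and 13.6 FPKM in control mice. Apart from control replicate 3, which had 9.65 times the average of control replicates 1 and 2, its values lay within a narrow range (log2 fold change -0.71, and 0.16 without that mouse). Il1b, the product of activated macrophages, was measured at 0.289, 0.980 and 0.0830 FPKM in HuRAKO mice, against 0.356, 0.222 and 2.84 FPKM in control mice. Il1rn, the antagonist of the IL-1 receptor, was measured at 1.02, 0.302 and 1.94 FPKM in HuRAKO mice, against 0.338, 0.231 and 1.18 FPKM in control mice, and was low in HuRAKO replicate 2 and in control replicates 1 and 2. The 6 receptors of the family, Il1r1, Il1rl2 (the IL-36 receptor), Il18r1, Il1rl1, Il18rap and Il1rap, had log2 fold changes between -0.31 and -0.04 (that of Il1rl1 turned with quantile normalization), and 5 of them were highest in control replicate 3. Il1r1, the signaling receptor of IL-1 and the most abundant of them, was measured at 8.14 ± 2.02 FPKM in HuRAKO mice and 9.79 ± 3.79 FPKM in control mice (mean ± SD, n = 3 each).

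Ccl2, Ccl7, Ccl8 and Ccl12 are chemokines of the monocyte chemoattractant family that lie next to each other with Ccl11 on chromosome 11. Ccl2, the main ligand of Ccr2 and one of the genes that the study followed by qPCR, was measured at 7.33, 6.33 and 5.45 FPKM in HuRAKO mice, against 2.98, 3.34 and 46.1 FPKM in control mice. Every HuRAKO mouse was above control replicates 1 and 2 and far below control replicate 3, which had 14.6 times the mean of the other control mice. The log2 fold change of Ccl2 was -0.35 ± 0.93 (SE, adjusted p = 0.945) with all mice and 0.82 ± 0.14 (SE) without control replicate 3, so that the direction turned. Ccl7 showed the same order, at 6.61, 5.26 and 6.82 FPKM in HuRAKO mice, against 3.81, 4.40 and 68.9 FPKM in control mice, with log2 fold changes of -0.76 with all mice and 0.50 ± 0.14 (SE) without control replicate 3, a fold under 1.5. Ccl8 was high in control replicate 1 as well, at 29.9, 43.7 and 48.6 FPKM in HuRAKO mice, against 92.2, 17.9 and 423 FPKM in control mice. Ccl12 was measured at 4.79, 2.88 and 3.52 FPKM in HuRAKO mice, against 1.90, 6.12 and 56.4 FPKM in control mice, and its groups overlapped with and without control replicate 3. Ccr2, the receptor that monocytes need to leave the bone marrow, did not share this order, at 11.9, 10.1 and 3.81 FPKM in HuRAKO mice, against 9.86, 5.30 and 13.8 FPKM in control mice.

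Ccl6 and Ccl9 are mouse chemokines of myeloid cells, and Ccl6 had the highest level of all members. Ccl6 was measured at 166, 130.5 and 296 FPKM in HuRAKO mice, against 172, 129.6 and 438 FPKM in control mice, and Ccl9 at 66.5, 37.3 and 107 FPKM in HuRAKO mice, against 45.9, 38.6 and 104 FPKM in control mice. In both genes HuRAKO replicate 3 and control replicate 3 were the highest mice of their groups and the remaining mice overlapped. Ccl3, Ccl4 and Ccl5 attract leukocytes to inflamed tissue, and Ccl3 and Ccl5 bind Ccr1. Ccl5 (RANTES), which T cells and natural killer cells make, was measured at 23.3, 8.04 and 6.58 FPKM in HuRAKO mice, against 5.87, 8.08 and 34.8 FPKM in control mice, with HuRAKO replicate 1 and control replicate 3 above the rest. Ccl3 was measured at 1.39, 1.09 and 3.09 FPKM in HuRAKO mice, against 0.715, 3.32 and 8.08 FPKM in control mice. Ccl4 was measured at 1.08, 0.0595 and 0.763 FPKM in HuRAKO mice, against 0.219, 0.907 and 7.89 FPKM in control mice. The receptor Ccr1 was close in the other 5 mice and several times higher in control replicate 3, at 5.10, 7.50 and 6.15 FPKM in HuRAKO mice, against 5.96, 5.03 and 34.6 FPKM in control mice. Of the 23 tested CC ligands 0 passed the thresholds with all mice, and 9 of the 24 listed were highest in control replicate 3.

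Of the other CC ligands, the T cell and dendritic cell attractants Ccl19, Ccl21a, Ccl21b and Ccl21c varied within HuRAKO mice rather than between the groups. Ccl21a on chromosome 4 was measured at 16.1, 52.8 and 9.48 FPKM in HuRAKO mice, against 11.5, 20.5 and 16.5 FPKM in control mice, and all 8 entries of these genes were highest in HuRAKO replicate 2. The entries of each gene are near-identical copies, and 5 of them lie off the assembled chromosomes, so that reads cannot be assigned to one copy with certainty. B cell markers were highest in the same mouse (14.4 FPKM, against 2.71 to 8.58 FPKM in the other 5 mice), and the part of lymphoid cells in these values was not tested. Ccr7, the receptor of Ccl19 and Ccl21, was measured at 1.51, 1.39 and 0.362 FPKM in HuRAKO mice, against 0.218, 0.478 and 2.68 FPKM in control mice, with control replicate 3 highest. Ccl24 (eotaxin-2), a product of macrophages, went the other way from most members, at 10.6, 9.91 and 6.90 FPKM in HuRAKO mice, against 12.1, 11.4 and 5.11 FPKM in control mice, with control replicate 3 the lowest mouse. Ccl28, an epithelial chemokine, was highest in control replicate 2, at 0.473, 0.438 and 0.170 FPKM in HuRAKO mice, against 0.656, 2.19 and 0.203 FPKM in control mice. It averaged 0.360 FPKM in HuRAKO mice and 1.01 FPKM in control mice, so that it passed the filter through the control mice. Of the fits with 1 mouse left out, it was past the thresholds in the one without control replicate 3 (log2 fold change -0.76), and its log2 fold change was -0.45 with all mice and -0.0612 without control replicate 2. Ccl17 and Ccl22 attract T cells through Ccr4. Ccl17, which was not tested, was measured at 0.364, 0.256 and 0.308 FPKM in HuRAKO mice, against 0.798, 0.491 and 0.673 FPKM in control mice, and Ccl22 at 1.25, 0.338 and 0.674 FPKM in HuRAKO mice, against 0.549, 0.522 and 0.652 FPKM in control mice. Ccl25 and Ccl27a, both between 0.5 and 3 FPKM in every mouse, had log2 fold changes of 0.06 and 0.05.

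The 9 tested CXC and CX3C ligands all had log2 fold changes below 0 with all mice, though Cxcl12 and Cx3cl1 were so close to 0 that another scaling turned them, and 5 of 9 were above 0 without control replicate 3. Cxcl9, Cxcl10 and Cxcl11 are induced by interferons and attract Cxcr3-bearing T cells and natural killer cells. Cxcl10 was measured at 2.41, 2.07 and 0.840 FPKM in HuRAKO mice, against 0.646, 1.52 and 59.4 FPKM in control mice. Control replicate 3 had 54.8 times the mean of the other control mice, while HuRAKO mice and the other control mice overlapped. Cxcl9 was measured at 22.8, 25.2 and 14.1 FPKM in HuRAKO mice, against 12.2, 19.9 and 54.1 FPKM in control mice. Cxcl11, which is listed in the transcript table only, was at 0 in all mice but control replicate 3 (2.04 FPKM). Their receptor Cxcr3 was measured at 3.53, 2.11 and 1.62 FPKM in HuRAKO mice, against 1.86, 1.42 and 4.96 FPKM in control mice. The neutrophil attractants Cxcl1 and Cxcl2 were low, with Cxcl1 at 1.97, 2.32 and 1.03 FPKM in HuRAKO mice, against 0.440, 1.75 and 7.95 FPKM in control mice. Cxcl2 was measured at 0.634, 0.518 and 0.253 FPKM in HuRAKO mice, against 0.218, 0.310 and 4.03 FPKM in control mice. HuRAKO replicates 1 and 2 were above control replicates 1 and 2 in both genes, and HuRAKO replicate 3 was in neither. Cxcl5, which was not tested, exceeded 0.5 FPKM in control replicate 3 alone (2.09 FPKM).

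**Figure D4:**
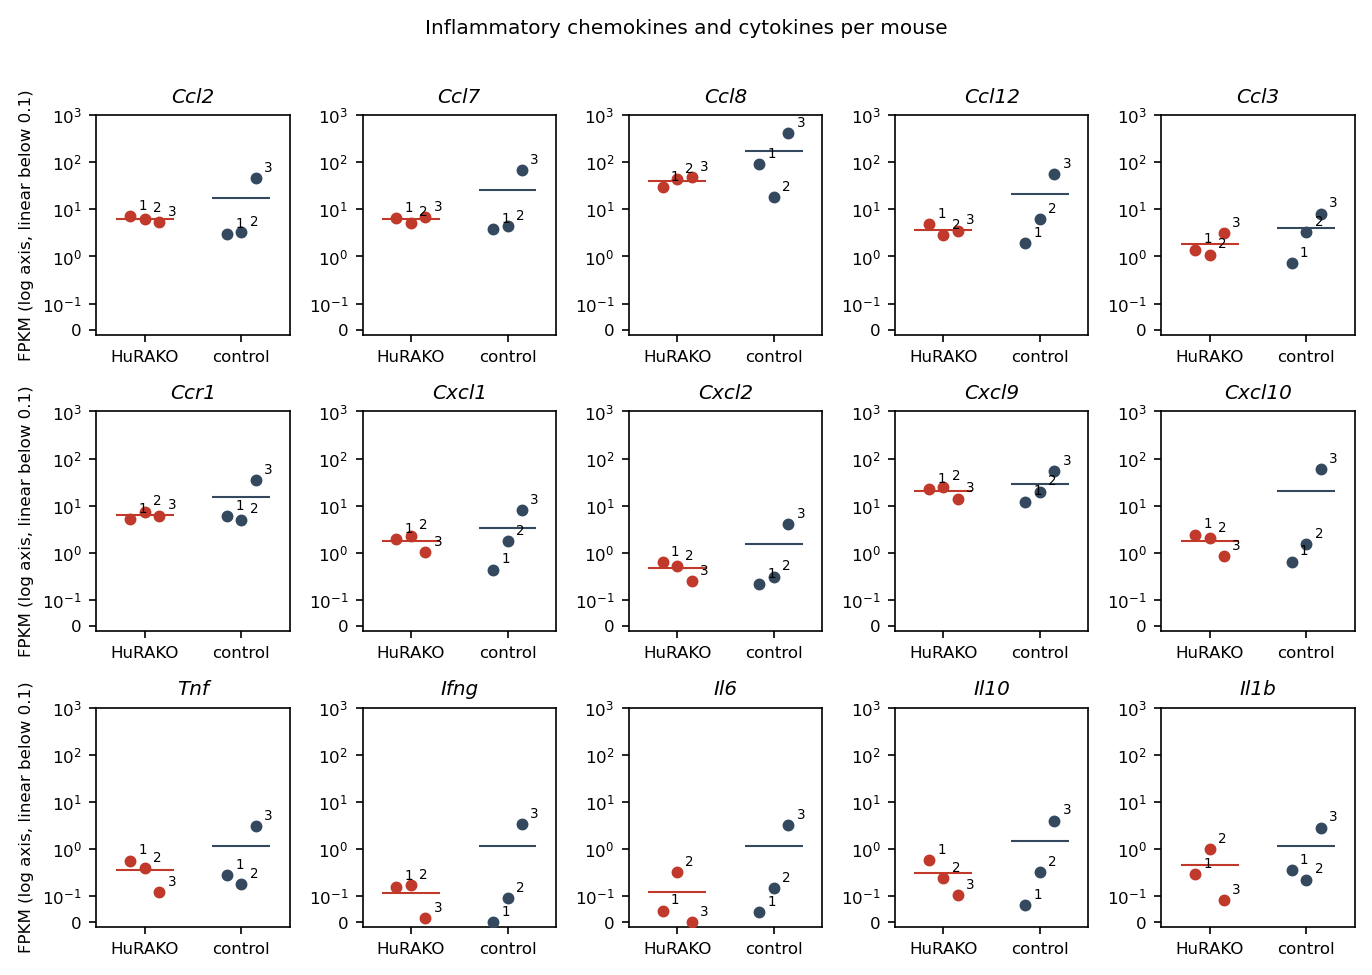
FPKM per mouse of 15 inflammatory chemokines, receptors and cytokines, on a log axis that is linear below 0.1 FPKM; points are mice with their replicate numbers and lines are arithmetic group means. Control replicate 3 is the highest mouse in each panel, as for Cxcl10 at 59.4 FPKM against 0.646 to 2.41 FPKM in the other 5 mice.

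Of the homeostatic CXC chemokines, Cxcl12, which stromal cells make and which retains leukocytes that carry Cxcr4, was measured at 30.7 ± 10.6 FPKM in HuRAKO mice and 29.98 ± 1.36 FPKM in control mice (mean ± SD, n = 3 each), with a log2 fold change of -0.02. Cxcr4 was measured at 11.5, 7.39 and 18.005 FPKM in HuRAKO mice, against 5.81, 12.8 and 6.57 FPKM in control mice, with overlapping groups. Cxcl13, the B cell attractant that mesothelial and stromal cells of fat-associated lymphoid clusters make, was measured at 11.4, 3.51 and 25.1 FPKM in HuRAKO mice, against 26.1, 12.2 and 19.03 FPKM in control mice, and was lowest in HuRAKO replicate 2. Its log2 fold change was -0.77 (adjusted p = 0.805, limma) with all mice and -0.10 without HuRAKO replicate 2. Cxcl14 ranged from 1.44 to 1.69 FPKM in HuRAKO mice, against 1.68 to 2.54 FPKM in control mice. Cxcl16 was measured at 5.23, 6.53 and 6.18 FPKM in HuRAKO mice, against 4.99, 5.31 and 15.02 FPKM in control mice, and its receptor Cxcr6 at 2.74, 2.34 and 1.62 FPKM in HuRAKO mice, against 2.56, 1.92 and 2.97 FPKM in control mice. Cx3cl1 (fractalkine) and its receptor Cx3cr1 had log2 fold changes of -0.03 and -0.09. Ccr3, the eotaxin receptor, was measured at 0.381, 0.217 and 0.608 FPKM in HuRAKO mice, against 0.984, 0.263 and 2.23 FPKM in control mice. None of the 9 tested chemokine receptors passed the thresholds in either fit, and 7 of them were highest in control replicate 3.

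Ackr1, which venular endothelial cells use to carry chemokines to their surface, was measured at 4.02, 4.33 and 3.15 FPKM in HuRAKO mice, against 1.36, 2.59 and 6.17 FPKM in control mice. HuRAKO mice were above control replicates 1 and 2 and below control replicate 3. Its log2 fold change was 0.29 (adjusted p = 0.876) with all mice and 0.72 ± 0.22 (SE) without control replicate 3. The 5 endothelial markers summed to 181, 260.2 and 188 FPKM in HuRAKO mice, against 161, 144 and 123 FPKM in control mice, with Cdh5 and Kdr called higher and no marker at 0 in a mouse. Control replicate 3, the highest mouse in Ackr1, had the lowest of these sums. Without control replicate 3, Kdr kept its call and Cdh5 did not. The part of endothelial cells in the Ackr1 values was not tested.

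Of the other interleukin receptors besides Il22ra1, Il7r had the log2 fold change farthest from 0 on the log2(FPKM + 1) scale. Il7r, the receptor of Il7 on T cells and innate lymphoid cells, was measured at 7.43, 2.34 and 12.8 FPKM in HuRAKO mice, against 2.29, 1.80 and 3.41 FPKM in control mice, and HuRAKO replicate 2 lay within the control range (log2 fold change 1.09 ± 0.51 (SE), adjusted p = 0.652). Without that mouse Il7r was higher at the study's thresholds (log2 fold change 1.65). With the replicate number as a block Il7r was higher at the study's thresholds (log2 fold change 1.09, where 1.46% of all genes were higher), and the same 3 members were lower (1.53%). The T cell markers did not share that order, with sums of 10.9, 5.29 and 2.98 FPKM in HuRAKO mice and 3.93, 4.84 and 13.2 FPKM in control mice. The decoy receptor Il22ra2, which binds IL-22 without a signal, was measured at 0.903, 0.603 and 0.230 FPKM in HuRAKO mice, against 1.82, 0.781 and 0.505 FPKM in control mice, so that it overlapped between the groups where Il22ra1 did not. The groups overlapped in the most abundant receptors. Il6ra was measured at 17.3 ± 3.86 FPKM in HuRAKO mice and 15.5 ± 3.43 FPKM in control mice (mean ± SD, n = 3 each), and Il10rb at 16.8 ± 1.98 FPKM in HuRAKO mice and 15.1 ± 3.53 FPKM in control mice (mean ± SD, n = 3 each). Il4ra, Il11ra1 and Il15ra had log2 fold changes of 0.00, 0.12 and 0.06. Il11ra2, a near-identical copy of Il11ra1, cannot be separated from it with certainty.

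Several receptors and receptor chains of lymphoid cells were highest in control replicate 3, among them Il21r, Il12rb1, Il2rb and Il2rg, and Il7r was not. Il21r was measured at 1.24, 0.752 and 0.684 FPKM in HuRAKO mice, against 0.929, 0.967 and 6.65 FPKM in control mice, and Il12rb1, a chain of the IL-12 and IL-23 receptors, at 0.388, 0.297 and 0.219 FPKM in HuRAKO mice, against 0.289, 0.181 and 3.14 FPKM in control mice. Il2rb, which natural killer cells carry, was measured at 5.002, 2.30 and 2.73 FPKM in HuRAKO mice, against 2.05, 2.04 and 12.3 FPKM in control mice. Il2rg, the common gamma chain, was measured at 10.3, 7.81 and 7.52 FPKM in HuRAKO mice, against 6.95, 5.62 and 28.6 FPKM in control mice. In Il2rb and Il2rg the HuRAKO mice were above control replicates 1 and 2, and the same held for Ccl2, Ccl7, Ackr1, Il10ra, Il10rb, Il3ra and Il7r, which made 9 of 90 tested members (10%), against 14.8% of all genes tested. HuRAKO mice were below those control mice in 10 members (11.1%, against 14.3%). Among the receptors of IL-17, Il17rb, the receptor of IL-25, was measured at 0.486, 0.756 and 0.431 FPKM in HuRAKO mice, against 1.07, 1.22 and 0.593 FPKM in control mice, and its log2 fold change was -0.32 with all mice and -0.46 ± 0.13 (SE) without control replicate 3, under 1.5-fold on the log2(FPKM + 1) scale. Il17ra, Il17rc, Il17rd and Il17re had log2 fold changes between -0.30 and 0.04. Il6st (gp130), the shared chain of the IL-6 family, was measured at 33.6 ± 8.81 FPKM in HuRAKO mice and 33.9 ± 1.14 FPKM in control mice (mean ± SD, n = 3 each). The remaining receptors, Il20rb, Il27ra and Il2ra, had log2 fold changes of -0.27, 0.14 and -0.12 and were under 2.5 FPKM in every mouse.

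Of the interleukins outside the IL-1 family, Il34, a ligand of the CSF-1 receptor that supports macrophages, was the most abundant, at 7.27 ± 2.77 FPKM in HuRAKO mice and 6.63 ± 1.03 FPKM in control mice (mean ± SD, n = 3 each). Il15, which sustains natural killer cells, was measured at 2.04, 2.96 and 1.81 FPKM in HuRAKO mice, against 1.64, 2.78 and 4.68 FPKM in control mice. Il6, a cytokine with actions on liver and muscle beside the immune system, was measured at 0.0438, 0.325 and 0 FPKM in HuRAKO mice, against 0.0378, 0.146 and 3.26 FPKM in control mice. It was thus under 0.5 FPKM in 5 of 6 mice, and 1 library carried the group mean. Il10, the anti-inflammatory cytokine of regulatory T cells and macrophages, was measured at 0.583, 0.240 and 0.104 FPKM in HuRAKO mice, against 0.0656, 0.321 and 4.002 FPKM in control mice. Il27 was at or under 0.146 FPKM in the other 5 mice and at 1.73 FPKM in control replicate 3. Il17d, with 3.35, 1.92 and 1.80 FPKM in HuRAKO mice, against 3.26, 2.78 and 1.22 FPKM in control mice, had its lowest value in that mouse.

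Tnf, Ifng, Nos2 and Ptgs2 stand for the inflammatory state of macrophages and lymphocytes, and the study also followed Tnf and Ifng by qPCR. The paper reports Tnf, Ifng and Ccl2 (MCP-1) as raised by qPCR in HuRAKO adipose tissue, though its figure caption names livers. Whether the sequenced mice were among those is not stated. Tnf was measured at 0.564, 0.389 and 0.121 FPKM in HuRAKO mice, against 0.279, 0.177 and 3.07 FPKM in control mice, and Ifng at 0.159, 0.171 and 0.0163 FPKM in HuRAKO mice, against 0, 0.0929 and 3.42 FPKM in control mice. Both were low except in control replicate 3, their groups overlapped, and their log2 fold changes were -0.44 and -0.60 with all mice and 0.13 and 0.09 without that mouse. Nos2, the inducible nitric oxide synthase, was measured at 2.35, 2.63 and 1.34 FPKM in HuRAKO mice, against 1.57, 1.32 and 0.928 FPKM in control mice. It was one of the members with its lowest value in control replicate 3, and its log2 fold change was 0.43 (adjusted p = 0.652, limma). Ptgs2 was measured at 1.20, 1.09 and 1.05 FPKM in HuRAKO mice, against 0.335, 1.54 and 6.28 FPKM in control mice, and control replicate 1 was the lowest and control replicate 3 the highest mouse.

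**Figure D5:**
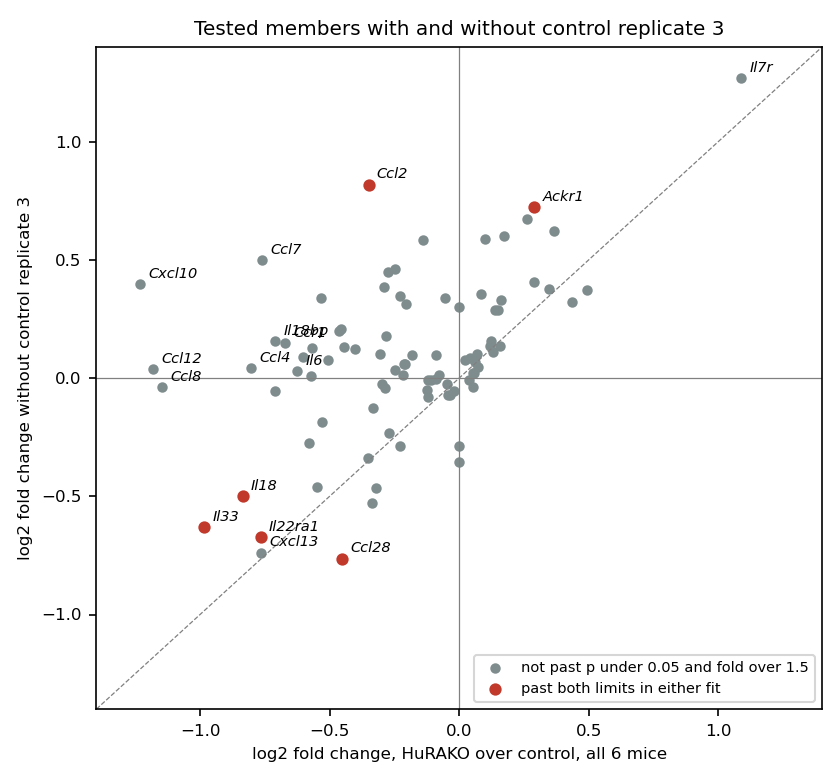
Each point is a tested member, with the log2 fold change of HuRAKO over control with all 6 mice on the x axis and without control replicate 3 on the y axis; the dashed line marks equal values and red points passed both thresholds in either fit. Most points lie above the line, Ccl2 is at -0.35 and 0.82, and Il33, Il18 and Il22ra1 stay below 0 in both.

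Signaling genes and related genes, which are no members, were read beside the members. The 65 listed genes were mostly of the JAK-STAT, NF-κB and MyD88 pathways. Gnai2, Gnai3, Arrb1, Arrb2, Casp1, Nlrp3, Pycard, Zfp36, Zfp36l1 and Zfp36l2 were listed besides. At the study's thresholds 0 were higher and 1 was lower (1.27% and 1.35% of all genes tested). The lower gene was Traf3ip2, the adaptor of the IL-17 receptor, at 2.55, 3.10 and 3.41 FPKM in HuRAKO mice, against 4.15, 4.66 and 6.57 FPKM in control mice (log2 fold change -0.59, adjusted p = 0.487 from limma). Without control replicate 3, Traf3ip2 fell under the fold threshold, and Traf3, an adaptor that restrains the noncanonical NF-κB pathway, was higher (log2 fold change 0.63). The median log2 fold change of the 65 genes was -0.01 with all mice and 0.09 without control replicate 3. Of the 65 genes, 36 were highest in that mouse, a larger share than the 27.1% of all genes tested.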

How the data were processed

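RNA-seq was carried out on epididymal white adipose tissue of 3 HuRAKO and 3 control mice, and the genotype in the sample labels gave the groups. The deposited tables held 1 FPKM per gene, or per transcript, and mouse, which the authors made by aligning reads to GRCm38, with Bowtie 0.12.2 among the tools in the submitters' processing notes. The kit and the sequencer named in the methods are not those in the labels. FPKM keeps no read totals, so no interval for counting error can be given, and precision rests on the spread of 3 mice per group.

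Values were log2-transformed after adding 1 FPKM, which understates fold changes of low genes. Features that averaged 0.5 FPKM or more entered limma 3.58.1 (R 4.3.3), and p-values, all two-sided, were Benjamini-Hochberg adjusted over the whole table. Calls used the thresholds of the study, p under 0.05 before adjustment and a fold over 1.5. Members, lists and named genes were chosen with earlier results of these data known. Named first were genes the study followed by qPCR, called members, the 3 most abundant members and the 2 with the smallest p of each role, and ligand and receptor sets, and further names account for the other members, of which 1 is counted but not reported here. For AU-rich motifs the longest 3′-UTR that GENCODE M21 annotates was taken. Scripts were tested on simulated data.

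Both groups carry replicate numbers 1 to 3 whose meaning the labels leave unsaid. Same-numbered mice deviated together from their group means (r = 0.101, 0.175 and 0.22 over genes, with a limit of 0.1 for pairing), and so did HuRAKO replicate 2 and control replicate 1 (r = 0.106). Results with these numbers as a replicate block are printed where a call changed. Other settings tried were pseudocounts of 0.1 and 0.5, no filter or a minimum of 1 FPKM, 2 scalings, 2 variance models, array weights and each mouse left out. Python 3.11.15, numpy 2.4.6, pandas 2.3.3 and matplotlib 3.10.9 were used.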

Additional observations from a re-analysis of the deposited data

How the results depend on the processing

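Of the 3 member genes lower in HuRAKO mice, all passed the study's thresholds with pseudocounts of 0.1 and 0.5, without a filter, with both scalings, with an intensity trend, with array weights and with the replicate block, and without moderation of the variances 1 passed. A pseudocount of 0.1 added Il7 (log2 fold change -0.64) to the lower members (4 of 90, against 2.56% of all genes). A minimum mean of 1 FPKM removed Il22ra1 from the test. In the place of 0 higher members, array weights and the replicate block gave 1, Il7r in both, and leaving out 1 mouse gave 0 to 2 (1.4% to 1.64% of all genes). Leaving out 1 mouse gave 2 to 6 lower members (1.32% to 2.44% of all genes). Without HuRAKO replicate 2 Il7r was higher, without HuRAKO replicate 3 Nos2 was higher and Ccl11 and Cxcl13 were lower, without control replicate 1 Ccl3 was lower, and without control replicate 2 Ccl8, Ccr3 and Il13ra1 were lower. Of transcripts, 4 were higher and 8 lower with a pseudocount of 0.1 (2.79% and 2.91% of all transcripts), the lower ones including those of Il7, Il17rb and Il1rl1, which the report's fit did not call. With 1 mouse left out 0 to 7 were higher (2.38% to 2.71%) and 3 to 8 lower (2.12% to 2.92%), and with the replicate block 3 were lower. An adjusted p under 0.05 was reached by 0 members in any of the 16 alternatives for genes, whose smallest was 0.287 with array weights. The replicate block changed no other call of a member gene. The share of members with TATTTAT was 32.6%, against 72.1% with ATTTA. Depth is unknown, and the spread of 3 mice a group sets the precision; the causes of the differences between settings were not tested.

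With a pseudocount of 0.1 the log2 fold change had the other sign in Ccl21b on chromosome 4 (-0.0394), Ccl21c entry ENSMUSG00000096271 (-0.0192) and Ccl24 (0.00724). With a pseudocount of 0.5 the log2 fold change had the other sign in Ccl24 (0.00310). With FPKM rescaled to a common sum the log2 fold change had the other sign in Ccl24 (0.0286) and Cxcl12 (0.0103). With quantile normalization the log2 fold change had the other sign in Ccl24 (0.00818), Cx3cl1 (0.0150), Il1rl1 (0.0277) and Cxcr3 (0.00398). With array weights the log2 fold change had the other sign in Ccl19 on chromosome 4 (0.0562), Ccl2 (0.39), Ccl21b on chromosome 4 (-0.0142), Ccl21c entry ENSMUSG00000096271 (-0.0107), Ccl5 (0.26), Ccl6 (0.18), Ccl7 (0.0425), Cxcl1 (0.11), Cxcl16 (0.0188), Cxcl9 (0.0792), Ccr2 (0.0424), Cxcr3 (0.20), Il2rb (0.20) and Il2rg (0.16). With 1 mouse left out in turn, the log2 fold change of 54 gene entries changed sign in at least 1 of 6 fits, with these ranges: Ccl12 (-2.12 to 0.0370), Ccl19 on chromosome 4 (-0.39 to 0.0988), Ccl19 entry ENSMUSG00000094661 (-0.47 to 0.21), Ccl2 (-0.97 to 0.82), Ccl21a on chromosome 4 (-0.32 to 0.86), Ccl21a entry ENSMUSG00000095320 (-0.40 to 0.84), Ccl21b entry ENSMUSG00000094121 (-0.44 to 0.72), Ccl21b on chromosome 4 (-0.63 to 0.59), Ccl21c entry ENSMUSG00000096271 (-0.58 to 0.62), Ccl21c entry ENSMUSG00000096873 (-0.43 to 0.65), Ccl24 (-0.36 to 0.20), Ccl3 (-1.19 to 0.00759), Ccl4 (-1.39 to 0.0435), Ccl5 (-0.66 to 0.59), Ccl6 (-0.56 to 0.31), Ccl7 (-1.43 to 0.50), Ccl9 (-0.19 to 0.60), Cx3cl1 (-0.19 to 0.16), Cxcl1 (-0.87 to 0.45), Cxcl10 (-2.20 to 0.40), Cxcl12 (-0.27 to 0.23), Cxcl16 (-0.53 to 0.18), Cxcl2 (-0.81 to 0.21), Cxcl9 (-0.68 to 0.35), Il18bp (-1.16 to 0.16), Il1b (-0.70 to 0.12), Il18r1 (-0.40 to 0.0610), Il18rap (-0.55 to 0.10), Il1r1 (-0.40 to 0.0605), Il1rap (-0.14 to 0.0150), Il1rl1 (-0.21 to 0.0688), Il1rl2 (-0.40 to 0.0135), Ifng (-0.98 to 0.0905), Ptgs2 (-1.03 to 0.20), Tnf (-0.76 to 0.13), Ackr1 (-0.0790 to 0.72), Ccr1 (-1.13 to 0.15), Ccr2 (-0.52 to 0.26), Ccr7 (-0.21 to 0.59), Cx3cr1 (-0.24 to 0.11), Cxcr3 (-0.31 to 0.34), Cxcr6 (-0.23 to 0.0334), Il12rb1 (-0.83 to 0.0747), Il15ra (-0.17 to 0.44), Il3ra (-0.0649 to 0.36), Il4ra (-0.23 to 0.30), Il6ra (-0.0184 to 0.29), Il10 (-0.99 to 0.13), Il15 (-0.52 to 0.0346), Il34 (-0.18 to 0.27), Il6 (-0.99 to 0.0308), Il2rb (-0.60 to 0.46), Il2rg (-0.70 to 0.38) and Il6st (-0.20 to 0.18).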

Other observations

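Cell type markers that belong to no comparison of the report are given here as values. Eosinophils, which Ccl11 and Ccl24 attract, had 2 of 4 markers in the table, Ear2 and Prg2. Ear2, an eosinophil-associated ribonuclease, was measured at 50.7, 44.1 and 49.2 FPKM in HuRAKO mice, against 32.8, 24.2 and 15.1 FPKM in control mice (log2 fold change 1.03 ± 0.26 (SE), adjusted p = 0.442 from limma), and it was called higher with and without control replicate 3. Its order was thus the other way from that of Ccl11. Prg2, the major basic protein of eosinophil granules, was under 1.3 FPKM in every mouse and was not called.

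Of 6 neutrophil markers 4 were listed, with sums of 7.47 to 25.2 FPKM in HuRAKO mice, against 5.49 to 33.3 FPKM in control mice. The 5 mast cell markers summed to 29.5 to 51.6 FPKM in HuRAKO mice, against 35.1 to 47.1 FPKM in control mice, and 3 of 5 dendritic cell markers to 7.94 to 13.4 FPKM in HuRAKO mice, against 9.13 to 10.2 FPKM in control mice. The 4 markers of adipocyte progenitors summed to 111 to 145 FPKM in HuRAKO mice, against 125 to 333 FPKM in control mice, and the 6 adipocyte markers to 3990.3 to 4544 FPKM in HuRAKO mice, against 3293 to 4576 FPKM in control mice, with control replicate 3 the highest mouse in the progenitor sum and the lowest in the adipocyte sum. Ly6a carried most of that progenitor sum, at 274 FPKM in control replicate 3 and at most 92.0 FPKM in the other mice. Dpp4 was also highest in control replicate 3, whereas Pdgfra was highest in control replicate 1 and Pi16 in HuRAKO replicate 1. None of these lists had a called gene. The single listed marker of lymph node stroma was under 1 FPKM in every mouse, and that of epididymal epithelium, Crisp1, was listed at 0 in 4 of 6 mice.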
